A study of Mus musculus with 6 samples.

Results

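The Hox genes encode homeodomain transcription factors and lie in 4 loci of the mouse genome, HoxA on chromosome 6, HoxB on chromosome 11, HoxC on chromosome 15 and HoxD on chromosome 2. Members were the distinct accessible regions of the deposited table whose midpoint was inside, or within 20 kb of the limits of, a protein-coding gene named Hoxa, Hoxb, Hoxc or Hoxd with a number. This rule used position alone and gave 88 of 69689 regions, of which 24 were in HoxA, 25 in HoxB, 19 in HoxC and 20 in HoxD. They lay around 39 Hox genes. Of the 88 regions, 76 fell between the outermost genes of their locus and 12 in the flanks. The nearest protein-coding gene was a Hox gene for all but 3 of them.

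Within each locus the genes are numbered by paralogue group, from group 1 at the 3′ end to group 13 at the 5′ end. In the embryo, 3′ genes are switched on early and act anteriorly, and 5′ genes are switched on later and act posteriorly. In embryonic stem cells the loci are known as largely silent chromatin held by Polycomb complexes, and they are opened in order by signals such as retinoic acid, Wnt and Gdf11.

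The assay, ACC-seq, uses the transposase Tn5 to place adapters in accessible DNA. It was run on wild-type R1 cells, an established line of mouse embryonic stem cells. All groups grew in serum, LIF and 2i over inactivated fibroblast feeders, which were taken out by replating. Fresh cells (2 libraries) were not fixed and were tagmented at 37 °C for 30 min. Fix cells (2 libraries) were held in 1% formaldehyde for 10 min and tagmented at 55 °C for 30 min. Fix_1,6-Hex cells (2 libraries) were treated as Fix cells but were also given 1,6-hexanediol at 10% (w/v), which disperses many condensates. The alcohol was added 30 s ahead of the formaldehyde and stayed in the fixation step. The table covers the 6 libraries together and gives each region a position on mm10 and the name of 1 of 9 clusters. It has no value per library, so the groups could not be compared, depth is unknown, and whether feeder DNA remained could not be checked. The sources used here do not say what a cluster number stands for, so the numbers serve only as names.

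RefSeq promoters (GRCm38.p6, whose chromosomes have the coordinates of mm10) are shown here for 7 starts that differ in the region over them, because the results below turn on which cluster lies at a Hox start. Each line gives the 250 bases before the annotated start, 5′ to 3′ along the gene, with every CG dinucleotide in capitals. Cluster 1 regions lay over the starts of Hoxa5, Hoxd11 and Hoxd13, cluster 9 regions over Hoxa13 and Hoxb1, a cluster 8 region over Hoxd9, and no region over Hoxd4.
Hoxa5, chr6:52204588-52204837, - strand: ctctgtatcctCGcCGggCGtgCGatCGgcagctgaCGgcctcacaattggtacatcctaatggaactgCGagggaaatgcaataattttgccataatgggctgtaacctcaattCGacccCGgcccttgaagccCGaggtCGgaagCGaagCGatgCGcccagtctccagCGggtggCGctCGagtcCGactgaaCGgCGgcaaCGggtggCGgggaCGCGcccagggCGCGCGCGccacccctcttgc
Hoxd11 (outer start), chr2:74679308-74679557, + strand: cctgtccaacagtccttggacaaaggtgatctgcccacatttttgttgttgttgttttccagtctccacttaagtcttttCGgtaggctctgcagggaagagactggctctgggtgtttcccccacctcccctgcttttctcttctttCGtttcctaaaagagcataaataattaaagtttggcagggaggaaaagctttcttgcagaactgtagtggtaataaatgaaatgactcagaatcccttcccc
Hoxd13, chr2:74667975-74668224, + strand: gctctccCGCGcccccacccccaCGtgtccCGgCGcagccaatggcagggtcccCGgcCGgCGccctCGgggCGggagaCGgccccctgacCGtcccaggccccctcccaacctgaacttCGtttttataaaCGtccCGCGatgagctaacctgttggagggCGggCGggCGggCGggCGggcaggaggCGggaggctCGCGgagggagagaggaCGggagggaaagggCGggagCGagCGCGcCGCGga
Hoxa13, chr6:52260881-52261130, - strand: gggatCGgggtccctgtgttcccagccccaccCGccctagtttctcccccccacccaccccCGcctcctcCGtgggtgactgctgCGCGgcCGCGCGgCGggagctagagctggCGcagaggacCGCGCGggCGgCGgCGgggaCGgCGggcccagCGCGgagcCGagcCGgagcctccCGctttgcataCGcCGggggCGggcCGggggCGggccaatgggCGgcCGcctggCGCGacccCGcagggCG
Hoxb1, chr11:96365508-96365757, + strand: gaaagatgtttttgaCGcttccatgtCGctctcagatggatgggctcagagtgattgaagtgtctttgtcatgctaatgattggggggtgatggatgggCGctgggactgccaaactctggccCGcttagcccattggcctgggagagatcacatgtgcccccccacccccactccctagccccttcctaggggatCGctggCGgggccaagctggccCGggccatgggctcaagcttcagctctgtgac
Hoxd9, chr2:74697513-74697762, + strand: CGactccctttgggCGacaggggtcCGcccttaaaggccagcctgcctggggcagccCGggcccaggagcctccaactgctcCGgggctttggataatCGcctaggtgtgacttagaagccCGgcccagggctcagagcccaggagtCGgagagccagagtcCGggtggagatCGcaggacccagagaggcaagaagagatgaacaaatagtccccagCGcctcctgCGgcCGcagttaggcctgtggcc
Hoxd4, chr2:74721728-74721977, + strand: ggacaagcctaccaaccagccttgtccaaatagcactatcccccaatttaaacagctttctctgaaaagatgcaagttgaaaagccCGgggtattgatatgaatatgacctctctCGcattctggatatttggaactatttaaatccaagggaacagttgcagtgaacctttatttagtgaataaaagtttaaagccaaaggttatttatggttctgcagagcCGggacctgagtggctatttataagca

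Cluster 1 was the most frequent name at the Hox loci and held 38 of the 88 regions, 43.2% (exact binomial 95% interval 32.7 to 54.2). Its share of all regions was 18.7%. Cluster 9 came next with 24 regions, 27.3% (interval 18.3 to 37.8), close to its 26.2% of all regions. Cluster 7 named 9 regions, 10.2% (interval 4.78 to 18.5), and held 18.9% of all regions. Cluster 8 also named 9 regions, 10.2%, against 9.04% of all. The other clusters named few Hox regions. Cluster 6 named 3 regions (3.41%, interval 0.709 to 9.64) against 12.7% of all regions. Cluster 5 named 2 (2.27%, interval 0.276 to 7.97) against 5.06%. Cluster 4 named 2 regions (2.27%, interval 0.276 to 7.97) against 3.47%, and cluster 3 named 1 (1.14%, interval 0.0288 to 6.17) against 3.61%. For clusters 3, 4 and 5 the interval includes the share of all regions, so no difference is resolved. Cluster 2 named 0 of 88 regions (interval 0 to 4.11) and held 2.27% of all regions. By a limit of 3 counts, a different bound from the interval, 0 of 88 allows a share of up to 3.41%. For cluster 2 the count of 0 is therefore within what so few regions can show. Intervals here cover counting error only, and neighbouring regions of a locus are not independent, so true errors are larger.

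**Figure D1:**
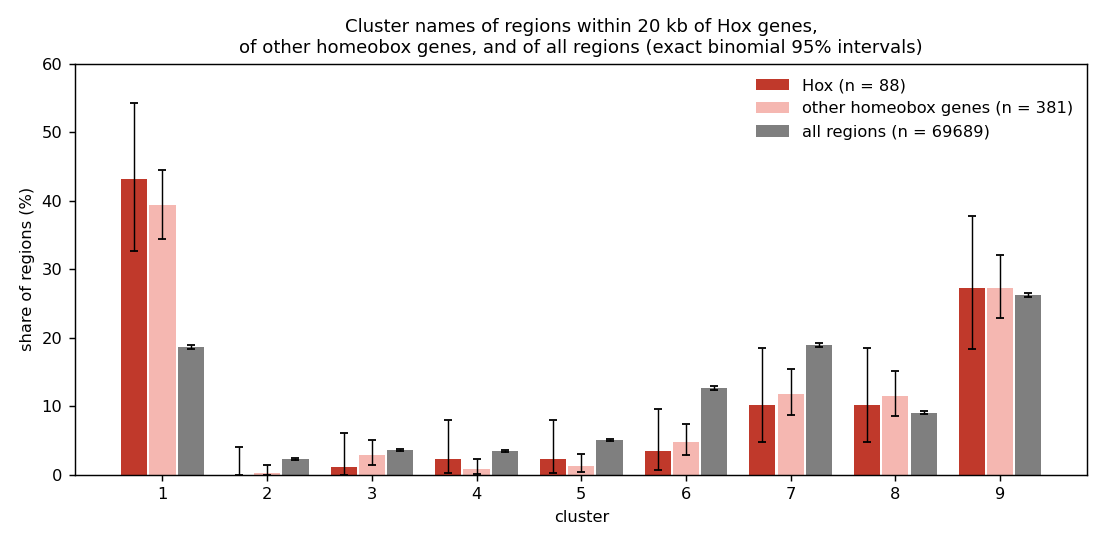
Share of regions (%) carrying each cluster name, for the 88 Hox regions, 381 regions within 20 kb of other homeobox genes, and all 69689 regions; bars start at 0 and error bars are exact binomial 95% intervals. Cluster 1 stands at 43.2% for Hox, 39.4% for other homeobox genes and 18.7% for all regions.

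Against regions within 20 kb of any protein-coding gene the picture was the same, since cluster 1 named 19.8% of those 55768 regions and cluster 9 named 25.1%. The regions around 89 other homeobox genes, which encode transcription factors with the same DNA-binding fold, had nearly the same make-up as the Hox loci. Of 381 such regions outside the members, 150 were in cluster 1 (39.4%, interval 34.4 to 44.5) and 104 in cluster 9 (27.3%). Clusters 2, 3 and 4 together named 15 of these 381 regions (3.94%), 3 of the 88 Hox regions (3.41%) and 9.36% of all regions. The intervals of the cluster 1 shares of Hox and other homeobox regions overlapped.

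Counts of the other names varied among the loci, and no difference between loci was tested. HoxC had 11 of 19 regions in cluster 1 (57.9%, interval 33.5 to 79.7), HoxD 9 of 20 (45.0%, 23.1 to 68.5), HoxA 9 of 24 (37.5%, 18.8 to 59.4) and HoxB 9 of 25 (36.0%, 18.0 to 57.5). These intervals overlap, so the order of the loci is not resolved by so few regions. Cluster 9 named 10 HoxB regions (40.0%), 7 HoxA regions (29.2%), 5 HoxD regions (25%) and 2 HoxC regions (10.5%). Cluster 7 was found at HoxB (5 regions), HoxA (2) and HoxD (2), with 0 at HoxC. Cluster 8 was found at HoxA (4 regions), HoxD (3) and HoxC (2), with 0 at HoxB. The intervals of these shares overlapped between loci as well. For cluster 9 they were 21.1 to 61.3 at HoxB and 1.3 to 33.1 at HoxC, and for cluster 8 they were 0 to 13.7 at HoxB and 4.74 to 37.4 at HoxA. Both cluster 5 regions were at HoxC, at Hoxc12 (chr15:102936722-102937413) and between Hoxc12 and Hoxc13 (chr15:102931283-102932592). The cluster 3 region (chr6:52221473-52222428) lay between Hoxa7 and Hoxa9. The cluster 4 region of HoxC (chr15:102920490-102922210) lay over the start of Hoxc13.

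**Figure D2:**
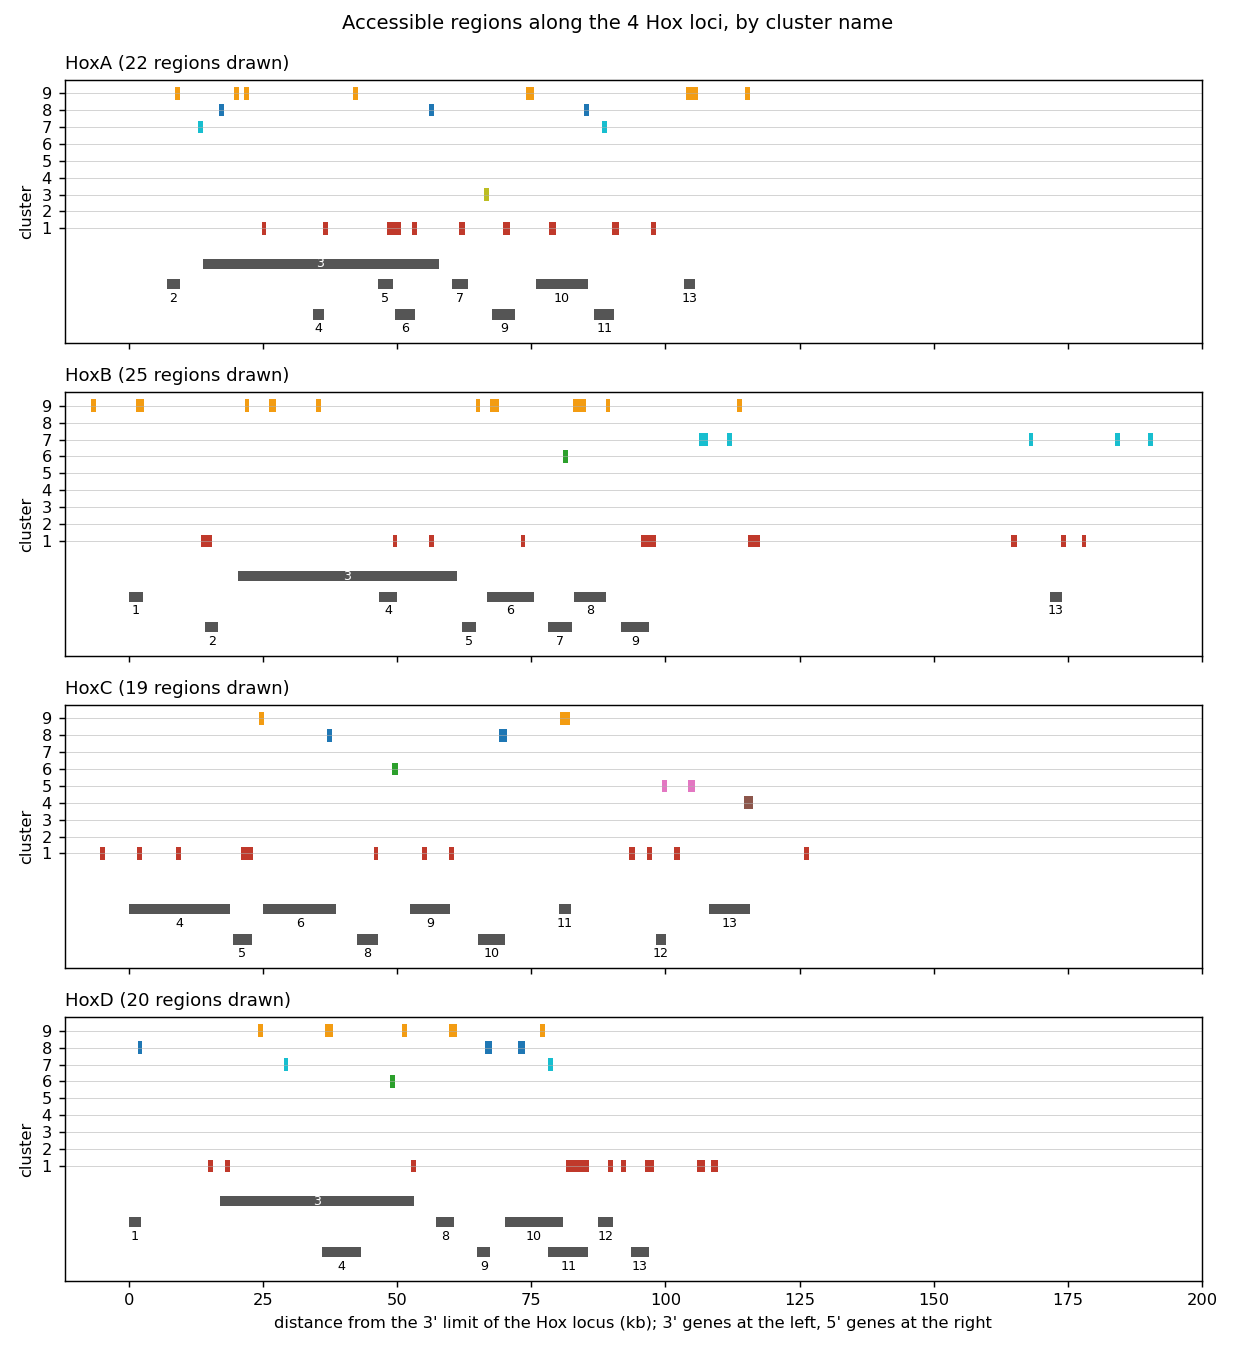
Map of 86 of the 88 regions along each Hox locus, as kb from its 3′ limit (x axis) and cluster name (y axis); coloured bars are regions, drawn at least 0.9 kb wide so that they can be seen, and grey bars are genes with their paralogue number. Cluster 1 bars sit along all 4 loci, and 6 in a row close the 5′ end of HoxD.

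Read from 3′ to 5′ over the 4 loci together, cluster 9 had a lower share at the back than at the front and middle, and cluster 1 a lower share at the front. Single loci did not all follow this order. With each region given to its nearest Hox gene, cluster 9 named 11 of 27 regions at groups 1 to 3 (40.7%), 7 of 18 at groups 4 to 8 (38.9%) and 6 of 43 at groups 9 to 13 (14%). Cluster 1 named 8 of 27 (29.6%), 9 of 18 (50.0%) and 21 of 43 (48.8%) in the same order. Hoxa3 is annotated across Hoxa4, Hoxa5 and Hoxa6, Hoxb3 across Hoxb4, and Hoxd3 across Hoxd4. For this reason regions were also given to the nearest annotated start. Cluster 9 then named 8 of 20 (40.0%), 10 of 27 (37.0%) and 6 of 41 (14.6%), and cluster 1 named 5 of 20 (25%), 12 of 27 (44.4%) and 21 of 41 (51.2%). Without HoxB the cluster 9 shares by nearest gene were 30.0%, 27.3% and 15.6%, and without HoxC they were 40.7%, 54.5% and 16.1%. In HoxD, by nearest start, cluster 9 named 1 of 6 anterior, 3 of 4 central and 1 of 10 posterior regions, and cluster 1 named 3 of 6, 0 of 4 and 6 of 10. In HoxA cluster 9 named 3 of 8 anterior and 3 of 9 posterior regions by nearest start. These orders are counts of a few regions and were not tested.

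By nearest start, the anterior part of HoxA, which includes Hoxa2 and Hoxa3, held 0 cluster 1 regions of 8. By nearest gene it held 3 of 12, and these 3 lay inside the long annotated limits of Hoxa3. Nearest to the starts of Hoxa4 to Hoxa7, 5 of 7 regions were in cluster 1. Nearest to the starts of groups 9 to 13, 4 of 9 were in cluster 1 and 3 in cluster 9. The locus closed with 2 cluster 9 regions at Hoxa13, a gene of distal limb and hindgut patterning.

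HoxB had cluster 9 at 4 of 6 regions nearest to the starts of Hoxb1 to Hoxb3 and at 5 of 8 nearest to those of Hoxb4 to Hoxb8. Its longest run was 3 cluster 9 regions inside Hoxb3 (chr11:96332695-96346363, 13.7 kb). Toward the 5′ side the names changed, with 5 of 11 regions in cluster 1 and 5 of 11 in cluster 7 near the starts of Hoxb9 and Hoxb13. The long stretch between Hoxb9 and Hoxb13 is partly beyond the 20 kb limit. It held 3 further regions that are no members, 254 to 396 bp wide, each in cluster 9. These 3 are left out of the posterior shares given above, and counting them would raise the posterior share of cluster 9.

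HoxC, which lacks groups 1 to 3, began with 4 cluster 1 regions in a row across Hoxc4 and Hoxc5 (chr15:103013663-103042031, 28.4 kb). Cluster 1 named 5 of 8 regions nearest to the starts of Hoxc4 to Hoxc8 and 6 of 11 nearest to those of Hoxc9 to Hoxc13. Those 11 regions carried 5 names, clusters 1, 4, 5, 8 and 9.

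HoxD ended with the longest run of the members, 6 cluster 1 regions in a row from Hoxd11 through Hoxd12 and Hoxd13 into Evx2 (chr2:74655363-74683760, 28.4 kb). Hoxd11, Hoxd12 and Hoxd13 pattern the limb and the digits, and Evx2 is a homeobox gene beside the locus. Further toward the 3′ side the names were mixed, with cluster 9 at 3 of 4 regions nearest to the starts of Hoxd4 and Hoxd8. Over all 4 loci, 24 of 75 neighbouring pairs within 10 kb of each other had the same name (32.0%), and over the autosomes and X 6275 of 32807 pairs did (19.1%). Same-name pairs also depend on the share of the most frequent name, 43.2% here, and the part of that share was not tested.

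Regions were dense in the Hox loci. With flanks the 88 regions lay in 617.4 kb, or 14.3 per 100 kb (Poisson 95% interval 11.4 to 17.6). HoxA had 16.5, HoxD 14.6, HoxB 13.9 and HoxC 12.2 regions per 100 kb. The same measure was 3.88 within 20 kb of any protein-coding gene and 7.59 within 20 kb of other homeobox genes, a set that includes some HoxD regions near Evx2. Over the autosomes and X it was 2.72.

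Distances at the edge of the rule are those of midpoints. The HoxA member farthest from a Hox gene lay 9.81 kb away (cluster 9). The nearest region outside lay 30.31 kb away (cluster 9). For HoxB these were 19.56 kb (cluster 1) and 30.89 kb (cluster 9), both between Hoxb9 and Hoxb13, for HoxC 10.59 kb (cluster 1) and 23.76 kb (cluster 1), and for HoxD 12.21 kb (cluster 1) and 60.89 kb (cluster 8).

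Of the 88 members, 31 were within 1 kb of a limit of a protein-coding gene (35.2%, interval 25.3 to 46.1), and 18.9% of all regions were. Members lie near genes by rule, and within 20 kb of any protein-coding gene the share was 23.7%. Among the 8 related gene lists given below it ran from 13.3% (Hox cofactors) to 33.3% (posterior axis signals). Names at the Hox gene ends differed from those at gene ends in general. Cluster 1 named 14 of the 31 (45.2%, interval 27.3 to 64.0) and 20.6% of all gene-end regions. Cluster 9 named 9 of 31 (29.0%) against 10.1% of all gene-end regions. Clusters 2, 3 and 4 together, which named 31.4% of gene-end regions, named 1 of the 31 at Hox genes (3.23%), the region at Hoxc13. At gene ends of the other homeobox genes, cluster 1 named 44 of 98 regions (44.9%), cluster 9 named 13 (13.3%, interval 7.26 to 21.6) and clusters 2, 3 and 4 together 10 (10.2%). Cluster 9 had an interval of 14.2 to 48.0 at the 31 Hox gene ends. Away from gene ends, cluster 1 named 24 of 57 Hox regions (42.1%) against 18.2% of all such regions, so its share was alike at and away from gene ends. Cluster 7 named 7 of those 57 (12.3%) against 22.1%.

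A gene's start was taken as the limit on the side of the higher paralogue number, since the gene table gives no strand and Hox genes of a locus are read in 1 direction. A region midpoint lay within 1 kb of 26 of the 39 Hox starts (66.7%, interval 49.8 to 80.9). These comprised 7 of 11 genes of HoxA, 6 of 10 of HoxB, 7 of 9 of HoxC and 6 of 9 of HoxD. With either limit, 30 of 39 Hox genes had such a region (76.9%, interval 60.7 to 88.9), against 60.9% of all protein-coding genes. That interval includes the share of all protein-coding genes. Of the 26 starts, 13 had cluster 1, 7 cluster 9, 4 cluster 8, 1 cluster 4 and 1 cluster 5.

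Cluster 1 starts were those of Hoxa4, Hoxa5, Hoxa6 and Hoxa11, of Hoxb4, Hoxb9 and Hoxb13, of Hoxc5, Hoxc8 and Hoxc9, and of Hoxd3, Hoxd12 and Hoxd13. The closest midpoints were 58 bp from the start of Hoxb9, 99 bp from Hoxa6, 148 bp from Hoxd13 and 168 bp from Hoxa5. Hoxa5 and Hoxa6, with roles in the lung and the thoracic skeleton, share their neighbourhood: the widest HoxA region (chr6:52203436-52206074, cluster 1, 2639 bp) covered the start of Hoxa5 and reached into Hoxa6. The cluster 1 region at Hoxb4 (chr11:96318254-96319071, 818 bp) covered the start of that gene, with its midpoint 396 bp away. Hoxb4 is known for expanding blood stem cells when supplied in excess.

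Cluster 9 starts were those of Hoxa2, Hoxa13, Hoxb1, Hoxb5, Hoxb8, Hoxc11 and Hoxd8. Hoxa2 and Hoxb1 both pattern the hindbrain. The region at Hoxa2 (chr6:52164279-52164478) was 200 bp wide, the lowest width in the table, and the one at Hoxb1 (chr11:96365431-96366958) was 1528 bp wide. At Hoxa13 the cluster 9 region (chr6:52259125-52261436) was 2312 bp wide and covered the start. At Hoxc11 the midpoint was 998 bp away, just inside the 1 kb limit. Cluster 8 starts were those of Hoxa10 (254 bp), Hoxc10 (324 bp), Hoxd1 (111 bp) and Hoxd9 (411 bp), distances being from midpoint to start. Hoxa10 and Hoxc10, paralogues that set lumbar identity of vertebrae, thus had the same name when the gene limit was taken as the start. At RefSeq promoter starts, Hoxa10 had cluster 1 over its inner start, and the third paralogue, Hoxd10, had cluster 8.

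**Figure D3:**
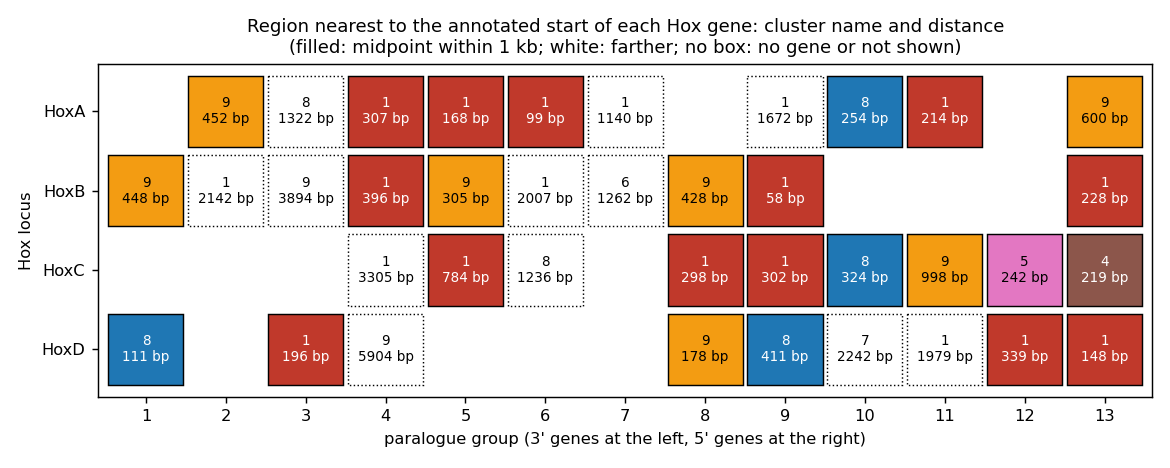
Cluster name of the region nearest to the annotated start of 38 of the 39 Hox genes and its distance in bp, by paralogue group (x axis) and locus (y axis); filled boxes have a midpoint within 1 kb (26 genes) and dotted white boxes do not (12 genes). The 4 genes of group 13 carry clusters 9, 1, 4 and 1.

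Paralogues often differed. In group 13, which patterns digits and the posterior end of the body, the start had cluster 9 at Hoxa13, cluster 1 at Hoxb13 and Hoxd13 and cluster 4 at Hoxc13. In group 1, Hoxb1 had cluster 9 and Hoxd1 cluster 8. In group 9, Hoxb9 and Hoxc9 had cluster 1 and Hoxd9 cluster 8. In group 4, Hoxa4 and Hoxb4 had cluster 1. With the start taken as the gene limit, the midpoints nearest to Hoxc4 and Hoxd4 were 3305 bp (cluster 1) and 5904 bp (cluster 9) away.

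Of the 13 genes with no midpoint within 1 kb of the start, 10 had one within 2.5 kb, and Hoxb3, Hoxc4 and Hoxd4 did not. Hoxd11 was a special case, since the widest member (chr2:74679314-74683760, cluster 1, 4447 bp) covered its annotated start although the midpoint was 1979 bp away. Regions overlapped 20 of the 39 starts (51.3%) when overlap was asked for in place of distance. Regions touched the body of 37 of the 39 genes. The exceptions were Hoxa4 and Hoxb5, each with a region just before its start. Annotated limits can be those of a long transcript with a start far from the one most used. The RefSeq promoter starts shifted the call for some genes. Hoxd10 had a cluster 8 region over its promoter start, and Hoxc4 a cluster 1 midpoint within 1 kb of its own. The inner start of Hoxd11 also had a cluster 1 midpoint within 1 kb. Hoxb8, counted above among the cluster 9 starts, had no midpoint within 1 kb of its promoter start.

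The RefSeq promoter table held 24 promoters of 22 Hox genes, with inner starts for some. A region lay over 17 of the 24 starts (70.8%), against 59.8% of all 21045 promoters and 74.7% of 75 other homeobox promoters. Of those 17, cluster 1 was over 10 (58.8%), cluster 8 over 4 (23.5%) and cluster 9 over 3 (17.6%). Over all promoters with a region the same clusters named 17.7%, 24.0% and 4.85%, and clusters 2, 3 and 4 together named 40.4%, against 0 of the 17 Hox starts. The start of Hoxc13, which a cluster 4 region covered, is not among these 17, and Hoxc4 was the HoxC gene in the promoter table. Of 56 other homeobox promoters with a region, cluster 1 was over 25 (44.6%), cluster 8 over 17 (30.4%), cluster 9 over 7 (12.5%) and clusters 2, 3 and 4 over 3 (5.36%). Hoxa10 carried cluster 8 over its outer start and cluster 1 over its inner start.

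CpG content varied widely among the promoters printed above. In the 300 bases around the start (250 before, 50 after) Hoxa13 had 45 CG dinucleotides, Hoxd13 37, Hoxa5 29, Hoxd9 20, Hoxb1 10, and Hoxd4 and the outer start of Hoxd11 had 4 each. The median over the 24 Hox promoters was 14.5 (range 4 to 45), close to the 13 of all promoters. As observed over expected CpG, the Hox median was 0.627 and that of all promoters 0.574. The 10 Hox promoters under cluster 1 had a median ratio of 0.864, and all 2227 promoters under cluster 1 had 0.759. The outer start of Hoxd11 was the exception among them at 0.257. The 7 Hox promoters with no region over the start had a median of 0.405, against 0.198 for all 8452 such promoters. The highest ratio of the 24, 1.02 at Hoxa5, and the lowest, 0.257 at the outer start of Hoxd11, were both under cluster 1. The 3 promoters under cluster 9 were also spread, with 0.918 at Hoxa13, 0.38 at Hoxb1 and 0.367 at Hoxd8.

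**Figure D4:**
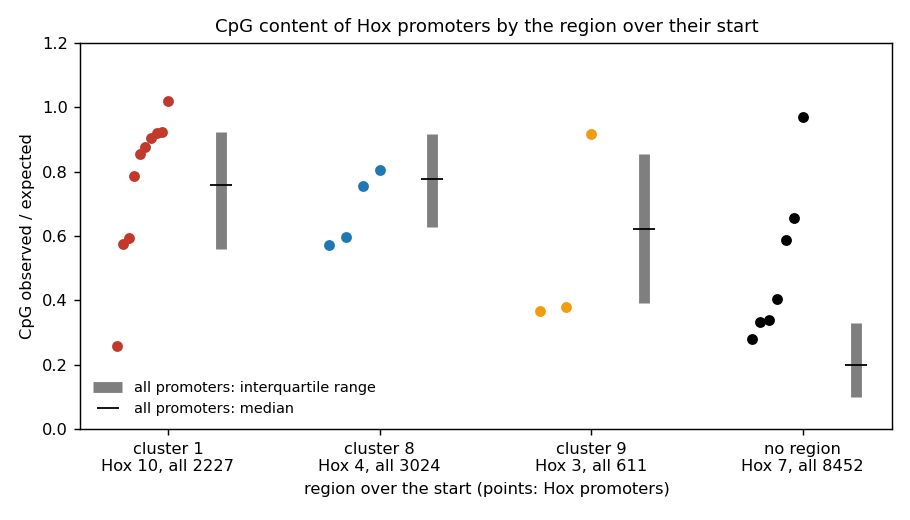
Observed over expected CpG in the 300 bases around each of the 24 Hox promoter starts (points), grouped on the x axis by the region over the start; grey bars and black ticks give the interquartile range and median of all promoters in that class. The cluster 1 Hox points have a median of 0.864, with the outer start of Hoxd11 at 0.257.

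Short motifs were counted on both strands of the same 300 bases as a description of the letters. CCAAT was in 15 of 24 Hox promoters (62.5%) and in 38.5% of all promoters. TGATNNAT, a form bound by HOX and PBX proteins together, was in 4 of 24 (16.7%) and in 7.36% of all, at Hoxa2, Hoxb1, Hoxb8 and the inner start of Hoxd11. In Hoxb1 it reads TGATGGAT and begins at position -162 from the start, in the lower-case stretch of the line printed above. CACGTG, the E-box, was in 5 of 24 (20.8%) and in 7.91% of all, at Hoxd1, Hoxd4, Hoxd10, Hoxd13 and the inner start of Hoxd11, all among the 10 HoxD promoters. TATAAA was in 4 of 24 (16.7%) and 12.7% of all, TAATTA in 2 of 24 (8.33%) and 4.47%, and GGGCGG in 10 of 24 (41.7%) and 46.7%. Counts this small, in promoters of related genes, cannot separate the shares.

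Hox regions were wider in the median than all regions together. Their median width was 703 bp (order-statistic 95% interval 540 to 963, range 200 to 4447), against 474 bp for all regions, and 33 of 88 (37.5%) were 1 kb or wider, against 23.2%. The median was 572.5 bp in HoxA, 655 in HoxB, 697 in HoxC and 799.5 in HoxD. Regions within 20 kb of any protein-coding gene had a median of 501 bp, and those near other homeobox genes 631 bp. Among the 8 related gene lists the median over all their regions ran from 440 bp (Hox cofactors) to 840.5 bp (trithorax). The median over all regions of a set was thus not particular to Hox. The difference from all regions lay away from gene ends, where the Hox median was 655 bp and that of all regions 415 bp. In that class Cdx and ParaHox genes had 840 bp (17 regions). The other lists were below Hox, from 419.5 bp (CTCF and cohesin) to 504 bp (retinoic acid signalling), with other homeobox genes at 483 bp. At gene ends Hox regions had a median of 818 bp, below the 1039 bp of all gene-end regions.

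Within a name, the 38 cluster 1 Hox regions had a median of 832 bp (range 251 to 4447), and 30 of them were above the 496 bp median of other cluster 1 regions. The 24 cluster 9 Hox regions had a median of 409.5 bp (200 to 2379), with 18 above the 292 bp of other cluster 9 regions. Cluster 7 and cluster 8 Hox regions were not wider, with medians of 275 bp against 345 and 753 bp against 865. The widest region of each locus was in cluster 1. Besides those at Hoxa5 and Hoxd11 these were the region over the start of Hoxb9 (chr11:96269937-96272840, 2904 bp) and the one over the start of Hoxc5 and over Mir615 (chr15:103013663-103015921, 2259 bp). The sources used here do not say how the width of a region was set.

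**Figure D5:**
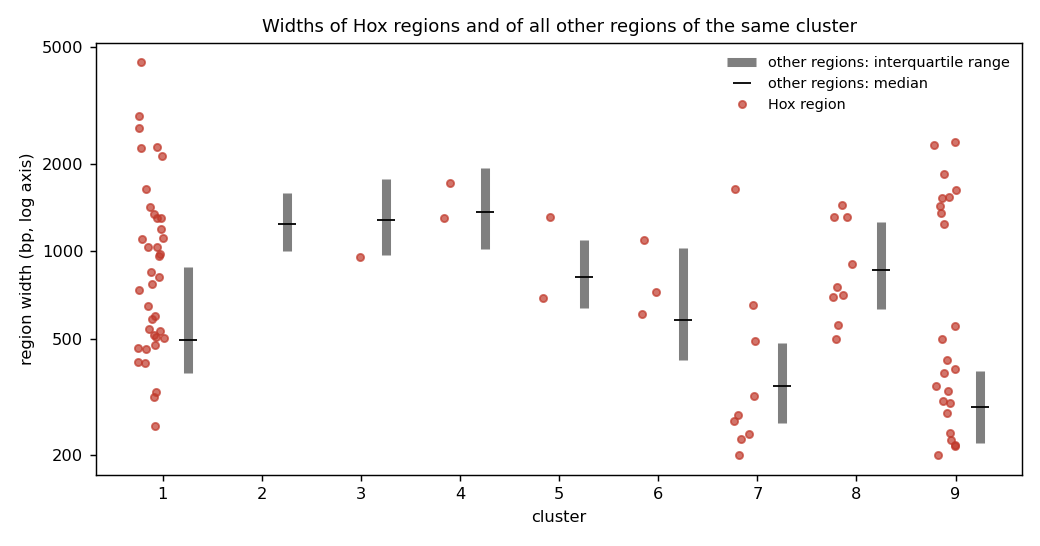
Width (bp, log axis) of each Hox region (red points) by cluster name, beside the median (black tick) and interquartile range (grey bar) of all other regions with that name. Of 38 cluster 1 points, 30 lie above the 496 bp median of other cluster 1 regions.

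The loci also hold microRNAs, which repress messages through a seed at bases 2 to 8 and target several Hox transcripts themselves. Their mature RefSeq sequences are shown with the seed in capitals, because microRNA genes of different loci share a seed while the regions nearest to them carry different names.
miR-10a-5p: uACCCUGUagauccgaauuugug
miR-10b-5p: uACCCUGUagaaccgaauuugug
miR-196a-5p: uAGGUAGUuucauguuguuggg
miR-196b-5p: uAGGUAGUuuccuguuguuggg
miR-615-3p: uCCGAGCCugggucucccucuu

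Of 6 microRNA genes, 2 had a region midpoint within 1 kb (33.3%), against 19.9% of all microRNA genes. Mir196b lay wholly inside a cluster 9 region between Hoxa9 and Hoxa10 (chr6:52229342-52230775, 1434 bp), and Mir615 wholly inside the cluster 1 region at Hoxc5. The other distances run from the gene to the region midpoint. The nearest region to Mir10a, between Hoxb4 and Hoxb5, was in cluster 1 at 1388 bp. That to Mir10b, within the limits of Hoxd4, was in cluster 9 at 1745 bp. Both Mir10a and Mir10b encode the seed ACCCUGU. The genes that share AGGUAGU with Mir196b were farther from any region midpoint, Mir196a-1 at 4062 bp (cluster 7) and Mir196a-2 at 3296 bp (cluster 1).

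Of 27 long non-coding RNA genes in the windows, 21 had a region midpoint inside or within 1 kb of them (77.8%), against 47.2% of all long non-coding RNA genes. Regions were also denser here than elsewhere, at 14.3 per 100 kb against 2.72, and the part of density in this count was not tested. Hoxa11os, antisense to Hoxa11, had the cluster 1 region at that start. Hotair, a HoxC transcript studied for its ties to Polycomb, had a cluster 1 region with its midpoint 938 bp away. Hottip, at the 5′ end of HoxA, had no midpoint within 1 kb. Its nearest region was the one at Hoxa13, with its midpoint 2494 bp away. Haglr in HoxD had a cluster 8 and a cluster 1 region. Of the genes antisense to or between the Hox genes, Hoxaas2 had 1 region (cluster 7), Hoxaas3 had 3 (clusters 1, 1 and 8), Hoxb5os had 3 (clusters 9, 9 and 1), Hoxb3os had 2 (clusters 1 and 9) and Hoxd3os1 had 3 (clusters 6, 9 and 1). These genes overlap Hox genes or lie beside them, so a region cannot be given to one of them alone.

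Genes that act with or on the Hox loci varied in how often cluster 1 was at their own ends, and no difference between these small lists was tested. Among 9 genes for the cofactors of Hox proteins (PBC and MEIS families), 6 had a gene-end region and 1 of them had cluster 1; Pbx3 had cluster 3, Pbx2 cluster 1 and Pbx4 cluster 5. All 29 Polycomb genes had a gene-end region, 6 with cluster 1 and 13 with clusters 2, 3 or 4; Ezh2 and Eed had cluster 3, Suz12 cluster 4 and Ezh1 clusters 8 and 9. Of 14 trithorax genes, whose products oppose Polycomb, 12 had a region and 3 had cluster 1; Kmt2a had cluster 8, Kmt2b and Kmt2d cluster 3 and Kmt2c cluster 1. Of 10 CTCF and cohesin genes, which organise loops at Hox loci, 7 had a region and 2 had cluster 1; Ctcf had cluster 8, Smc1a and Smc3 cluster 4 and Stag1 cluster 7.

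Among 16 retinoic acid signalling genes, 12 had a gene-end region and 6 had cluster 1, Rara and Rarg among them. Of 13 genes for signals of the posterior axis, 10 had a region and 4 had cluster 1; Wnt3a had cluster 1, Gdf11 cluster 7, Tgfbr1 cluster 3 and Wnt8a cluster 8. Of 6 Cdx and ParaHox genes, the nearest relatives and regulators of Hox genes, 4 had a region and 1, Gsx2, had cluster 1. For comparison, 14 of the 30 Hox genes with a gene-end region had cluster 1 (46.7%), as did 37 of 64 other homeobox genes (57.8%) and 2878 of 13321 protein-coding genes (21.6%).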

How the data were processed

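The 6 ACC-seq libraries came from R1 cells, 2 libraries a group (Fresh, Fix, Fix_1,6-Hex). Per the submitters' processing notes, the tools were SAMtools 1.6, Picard, Bowtie2 2.3.3.1 and cutadapt 1.18, with mm10 as the genome. Not given in the sources used here are the calling and merging of regions, their clustering and the depth. The deposited table gives a position and a cluster name per region and no signal, so no fit between groups was run. Starts, counted from 0 in the table, were counted from 1.

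Regions were placed by midpoint against 21887 protein-coding genes of the RefSeq gene table (mm10) with pandas 2.3.3 and numpy 2.4.6 in Python 3.11.15. Intervals used SciPy 1.17.1 and figures matplotlib 3.10.9. Shares carry exact (Clopper-Pearson) binomial 95% intervals. No test was run. Values of some genes are not reported here or drawn. The placing was checked on simulated regions. The members and gene lists were chosen with earlier results of these data known. All 186 list entries matched by symbol, of which the first 4 with a gene-end region could be named. Hox regions were named where widest in their locus, at a Hox start, or of a cluster with at most 2 members; others given with coordinates were chosen after their values were seen. Non-coding genes could be named where a region midpoint lay within 1 kb; those printed, with Hottip and the other microRNA genes, were picked among them after their values were seen.

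Alternatives were no flank, flanks of 5 kb and 50 kb, any overlap, each locus left out, wider regions only, weighting by width, and other distances to a start.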

Additional observations from a re-analysis of the deposited data

How the results depend on the processing

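Of 150 alternative values, 145 stayed within the counting interval of the reported value (for counts of genes, within 1.5 times) and 5 did not. Many had little room to move. Any overlap kept all 88 regions, leaving out a locus kept 63 to 69 of them, and the cluster 2 share was 0.0% in every setting. The tally is therefore no independent check. The share of Hox regions in cluster 1 ran from 39.1% without HoxC to 50.5% weighted by width, and that in cluster 9 from 18.3% for regions of 500 bp or wider to 31.9% without HoxC. Cluster 7 fell to 3.33% of regions of 500 bp or wider and 3.03% of those of 1 kb or wider. Cluster 3 fell to 0.0% without HoxA, its one locus, and for regions of 1 kb or wider, and cluster 5 to 0.0% without HoxC. Between 20 and 36 Hox genes had a region at their start, by the distance asked for. Density ran from 11.4 to 16.1 regions per 100 kb and the median width from 629.5 to 731.5 bp. The nearest-start order, the 1 kb width limit and the order without each locus were added after seeing the data. No paired analysis was possible because the table holds no value per library, and leaving out a library was not possible for the same reason. With 18 to 43 regions per position along the loci, differences of a few regions are not resolved.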
